A study of Mus musculus with 26 samples.

Results

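The PAR bZIP transcription factors Dbp (ENSMUSG00000059824), Tef (ENSMUSG00000022389) and Hlf (ENSMUSG00000003949), together with their counterpart Nfil3 (ENSMUSG00000056749), were followed in the mouse choroid plexus, the epithelial tissue of the brain ventricles that secretes the cerebrospinal fluid. These 4 genes were taken by symbol from the 55416 genes of the deposited count table, and all 4 were among the 13697 genes that passed a filter on low counts. The filter asked for a mean of at least 1 CPM in each group, CPM being the count of a gene per 1000000 counts of its library. The choroid plexus of the 4th ventricle had been taken from adult C57Bl6J males aged 4 to 6 months, either sham-operated controls (Ctrl, n = 12) or mice whose suprachiasmatic nuclei (SCN), the seat of the central circadian clock, had been lesioned electrolytically (SCNx, n = 12). In the study, each lesion was checked by the absence of activity rhythms in darkness and by histology after death, and mice with a rhythm or with remains of the SCN were excluded. In both groups 1 mouse was sampled every 4 h over 2 days of constant darkness, from circadian time 0 (CT0) to CT44, so that the scatter of single mice around a curve, and not replicates at a time point, gave the error. Another 2 libraries came from FoxJ1-ERT2-Cre+/-; Bmal1fl/fl mice on a tamoxifen diet (0.4 g/kg) begun at 8 months of age, in which a Cre under the promoter of FoxJ1, a gene of ciliated cells, excises part of the clock gene Bmal1 (KO). One KO mouse was sampled at ZT7 and 1 at ZT18 in a light-dark cycle (ZT0 is lights on), and the tissue was cut by laser from frozen sections, not dissected, and made into libraries with another kit.

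DBP, TEF and HLF bind D-boxes, short elements in the promoters of clock genes and of genes of detoxification and metabolism, and activate transcription there. NFIL3, also called E4BP4, binds the same elements and represses them. Dbp is driven through E-boxes by the heterodimer of CLOCK and BMAL1, and Nfil3 is a known target of the ROR activators and REV-ERB repressors, so that activator and repressor reach the D-box at opposite phases of the day in tissues such as the liver.

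The sequences before the start sites show which of these elements lie next to the genes. RefSeq promoters (build GRCm38.p6, 250 bases before the start site) were searched on both strands for the E-box CACGTG, the related CACGTT, the D-boxes TTACGTAA and TTATGTAA, the ROR cores TAGGTCA and TGGGTCA, and the cAMP response element TGACGTCA. The motifs did not overlap each other in the members. Both Tef start sites in the table had an E-box, which 6.02% of the 32851 promoters in the table held. Hlf had the cAMP response element (1.55% of promoters) and Nfil3 a ROR core on the reverse strand (5.38% of promoters). For Dbp, none of these letters stood in this window. The stretches of 100 bases are shown because they hold the matches, which are in capitals, and each is written 5′ to 3′ on the strand of its gene. The Tef stretches lay on the plus strand at chr15:81802500-81802599 and chr15:81811230-81811329, with the E-box beginning at position -127 and -138 from the respective start site. The Hlf stretch lay on the minus strand at chr11:90390918-90391017, with the match beginning at -9, and the Nfil3 stretch on the minus strand at chr13:52981040-52981139, with the match beginning at -12.
Tef, upstream start: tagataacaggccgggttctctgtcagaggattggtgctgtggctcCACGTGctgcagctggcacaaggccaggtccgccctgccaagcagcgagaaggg
Tef, downstream start: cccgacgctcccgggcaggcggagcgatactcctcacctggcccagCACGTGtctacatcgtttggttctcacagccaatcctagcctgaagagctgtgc
Hlf: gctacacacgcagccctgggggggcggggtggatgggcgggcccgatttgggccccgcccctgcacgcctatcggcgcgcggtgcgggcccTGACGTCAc
Nfil3: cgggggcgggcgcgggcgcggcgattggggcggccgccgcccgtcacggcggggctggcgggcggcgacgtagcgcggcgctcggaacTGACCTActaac

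The Ctrl and SCNx mice differed little in sequencing depth, and a few libraries held RNA of other tissues. The total of estimated counts ranged from 38751201 to 49527655 in the Ctrl and SCNx libraries and was 17425207 and 18059227 in the KO libraries at ZT7 and ZT18. The summed level of 10 markers of the choroid plexus epithelium (Ttr, the transthyretin gene, among them) ranged from 144035 to 167589 CPM in Ctrl and from 106853 to 168398 CPM in SCNx. Hepatocyte transcripts were high in Ctrl CT16 and SCNx CT0 (3409 and 12646 CPM summed over 14 markers, against a median of 2.32 and 5.18 in the respective group), and markers of neurons and cerebellum in Ctrl CT4 and SCNx CT32 (353 and 455 CPM over 12 markers, medians 18.7 and 17.5). In bulk tissue, fewer cells of a type and less RNA per cell cannot be told apart.

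In Ctrl, the 3 activators peaked around the end of the subjective day and the repressor Nfil3 in the second part of the subjective night, and all 4 genes were called rhythmic (edgeR quasi-likelihood F test of a 24 h cosine curve, Benjamini-Hochberg adjusted p under 0.05), where 10.7% of the genes tested were. These 1459 genes became 918 without Ctrl CT44 and 2249 without SCNx CT32, and the 4 members were called in both fits. Dbp ranged most widely. Its level was lowest in Ctrl CT0 with 8.68 CPM, had a median of 35.4 CPM and was highest in Ctrl CT36 with 137 CPM. On both days Dbp climbed between CT0 and CT12 and fell again within 8 h. The Dbp curve had an amplitude of 2.05 ± 0.05 (SE, log2 CPM; n = 12), a 17-fold change from trough to peak, with a peak at 10.2 ± 0.10 h (adjusted p = 1.09e-06). The curve took up nearly all of the variation between mice (R2 = 0.994, log2 CPM).

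Tef followed with a smaller swing. Its level ran from 40.0 CPM in Ctrl CT24 over a median of 115 CPM to 205 CPM in Ctrl CT12, with 204 CPM in Ctrl CT36, so that the second day repeated the first. The amplitude of Tef was 1.07 ± 0.07 (SE, log2 CPM), a 4.40-fold change, and it peaked at 11.7 ± 0.25 h (adjusted p = 8.13e-07). Hlf had the flattest curve. It ran from 33.4 CPM in Ctrl CT0 over a median of 49.1 CPM to 80.7 CPM in Ctrl CT12. The amplitude of Hlf was 0.55 ± 0.07 (SE, log2 CPM), a 2.14-fold change, and it peaked at 10.7 ± 0.47 h (adjusted p = 7.24e-05).

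Nfil3, the repressor, ran against the others. It was lowest in Ctrl CT8 with 3.91 CPM, had a median of 9.12 CPM and was highest in Ctrl CT44 with 24.6 CPM, followed by 21.95 CPM in Ctrl CT20. The amplitude of Nfil3 was 1.09 ± 0.09 (SE, log2 CPM), a 4.52-fold change, and its peak lay at 20.9 ± 0.32 h (adjusted p = 1.41e-07). By p-value, Nfil3 ranked 2, Tef 7, Dbp 8 and Hlf 82 among the genes tested for a rhythm in Ctrl. None of the 4 genes was called for an added 12 h harmonic in Ctrl (adjusted p = 1 for each), and neither was any other gene tested by edgeR (0% called, 574 at an unadjusted p under 0.05, and 33 called with DESeq2).

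The order of the peaks within the first day was Dbp, Hlf, Tef and Nfil3. Tef followed Dbp by 1.5 ± 0.24 h (SE from leaving out each mouse in turn). Hlf lay between them, 0.49 ± 0.67 h after Dbp and 1.004 ± 0.57 h before Tef, so that its place differed from neither neighbour by more than 2 SE. Nfil3 peaked 10.7 ± 0.35 h after Dbp but 9.24 ± 0.36 h after Tef, and thus stood closer to opposite to Dbp than to Tef. The second cycle was set against the first. Across the 6 pairs of Ctrl mice taken 24 h apart, the mean log2 difference (second minus first) was 0.11 ± 0.11 (SD) for Dbp, -0.04 ± 0.10 for Tef, -0.18 ± 0.19 for Hlf and 0.20 ± 0.26 for Nfil3. No member passed the exact two-sided sign-flip permutation test (adjusted p = 0.333 to 0.45 in Ctrl over 8 tests), where 6 pairs cannot give a raw p below 0.0312.

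**Figure D1:**
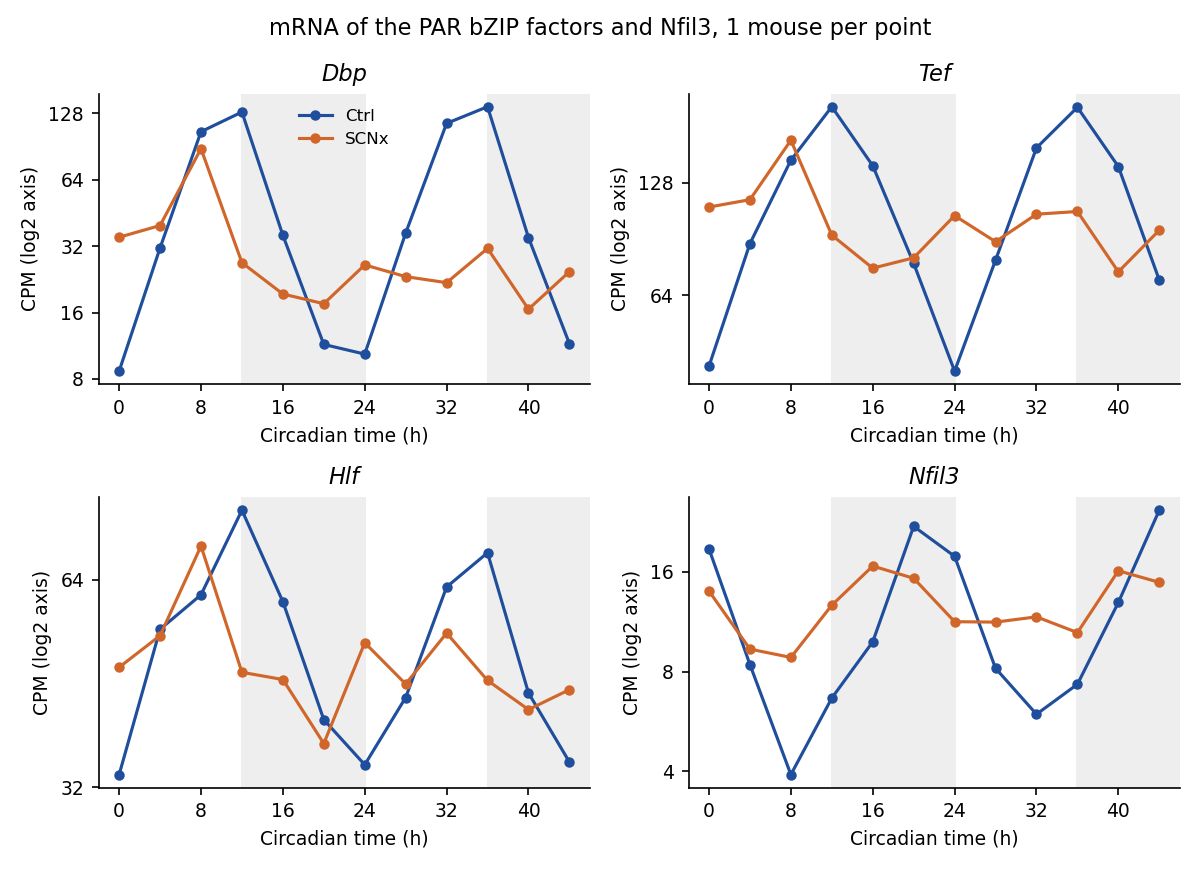
CPM of each member (log2 axis) against circadian time in Ctrl (blue) and SCNx (orange), 1 mouse per point joined in time order, with the subjective night in grey. In Ctrl, Dbp swings between 8.68 and 137 CPM and Nfil3 in the opposite sense between 3.91 and 24.6 CPM, while in SCNx the lines are flatter except for the CT8 mouse with 88.5 CPM of Dbp.

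After the SCN lesion the 4 members spanned a narrower range. Dbp ran from 16.6 CPM in SCNx CT40 over a median of 25.4 CPM to 88.5 CPM in SCNx CT8, the next highest mouse being SCNx CT4 with 39.7 CPM. Tef ran from 73.9 CPM over 99.99 CPM (the median) to 166 CPM, and Hlf from 37.0 CPM over 46.4 CPM to 71.6 CPM, both again highest in SCNx CT8. Nfil3 ran from 8.83 CPM, in SCNx CT8, over 12.2 CPM to 16.7 CPM in SCNx CT16. For each member all 12 SCNx mice lay inside the range of the Ctrl mice, and for none did an SCNx mouse reach a Ctrl extreme.

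The groups were furthest apart at the Ctrl peaks and troughs, in windows chosen after the values were seen and given as a description. Around the peak of Dbp (CT8, CT12, CT32 and CT36), the 4 Ctrl mice had 106 to 137 CPM of Dbp and the 4 SCNx mice 21.9 to 88.5 CPM, without overlap. There Nfil3 did the reverse, with 3.91 to 7.32 CPM in Ctrl and 8.83 to 12.7 CPM in SCNx. Tef and Hlf overlapped between the groups in this window, in each case through the SCNx CT8 mouse. Of all genes tested, 4.63% did not overlap there. In the late night and early morning (CT0, CT20, CT24 and CT44), Dbp was at 8.68 to 11.6 CPM in Ctrl and at 17.5 to 35.1 CPM in SCNx, which was 2.46 times the Ctrl mean, and Tef at 40.0 to 77.8 CPM in Ctrl and 80.5 to 110 CPM in SCNx. Nfil3 was at 17.8 to 24.6 CPM in Ctrl and 11.3 to 15.3 CPM in SCNx. Dbp, Tef and Nfil3 did not overlap between the groups in this second window, where 7.76% of all genes tested did not.

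The shape of the daily curve differed between Ctrl and SCNx for all 4 members (edgeR test of both curve terms), as it did for 2.12% of the genes tested. That background rests on 291 genes, which became 163 to 192 without Ctrl CT12, CT20, CT24 or CT44 or SCNx CT12 or CT16, and 466 without SCNx CT32. The difference was 1.77 in log2 CPM for Dbp (adjusted p = 0.000686), 1.10 for Tef (adjusted p = 0.000168), 0.85 for Nfil3 (adjusted p = 0.000489) and 0.48 for Hlf (adjusted p = 0.0262), taken as the length of the vector between the fitted curves. The amplitude in SCNx was 32.4% of that in Ctrl for Dbp, 29.7% for Tef, 32.6% for Nfil3 and 43.0% for Hlf. Leaving out each mouse in turn, the calls for Dbp, Tef and Nfil3 stayed in 24 of 24 fits. That for Hlf stayed in 18 fits and was lost without Ctrl CT0, CT12 or CT24 or SCNx CT12, CT24 or CT36 (adjusted p up to 0.0757), and also without the pair of libraries with hepatocyte transcripts (adjusted p = 0.065).

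In SCNx the fitted curves of the 3 activators peaked within an hour of each other and Nfil3 on the other side of the day. They had amplitudes of 0.66 ± 0.23 for Dbp, 0.32 ± 0.10 for Tef, 0.24 ± 0.07 for Hlf and 0.36 ± 0.07 for Nfil3 (SE, log2 CPM, n = 12 each). None was called in SCNx by edgeR (adjusted p = 0.137 for Nfil3 to 0.189 for Hlf), and 0% of the genes tested were. At an unadjusted p under 0.05 stood all 4 members (p = 0.000559 for Nfil3 to 0.00819 for Hlf) and 14.8% of the genes tested. With DESeq2, 432 genes were called in SCNx, among them Dbp (adjusted p = 0.0194), Tef (0.0394) and Nfil3 (0.014), and without the filter on low counts the same 3 members (adjusted p = 0.00769, 0.0287 and 0.00889). The SCNx curves peaked at 6.41 ± 1.68 h for Dbp, 5.92 ± 1.33 h for Tef, 6.67 ± 1.23 h for Hlf and 18.2 ± 0.72 h for Nfil3. The order Dbp, Hlf, Tef of Ctrl was not seen again, with Tef minus Dbp at 1.5 ± 0.24 h in Ctrl and -0.48 ± 0.62 h in SCNx. Nfil3 stood 11.8 ± 1.64 h from Dbp in SCNx. Compared with Ctrl, each fitted peak was earlier, with differences of -3.80 ± 1.64 h for Dbp, -5.78 ± 1.27 h for Tef, -4.03 ± 1.27 h for Hlf and -2.70 ± 0.90 h for Nfil3 (SCNx minus Ctrl, SE from leaving out each mouse), with the reservation that the SCNx curves themselves were not called.

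**Figure D2:**
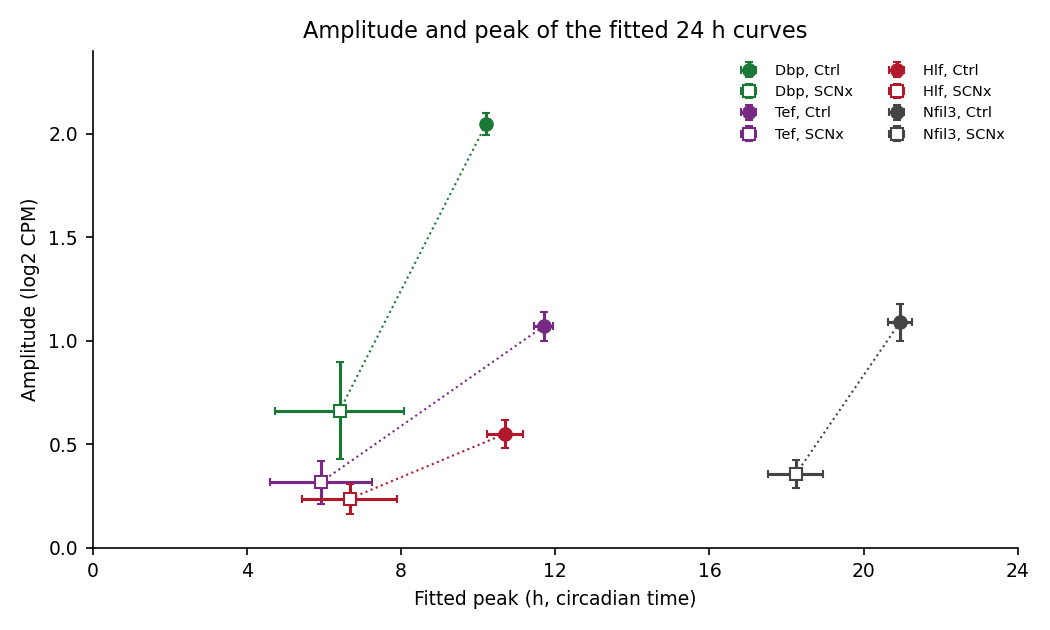
Amplitude (log2 CPM) against peak time (h) of the fitted 24 h curve of each member in Ctrl (filled circles) and SCNx (open squares), with bars of 1 SE and a dotted line joining the groups of one gene. All 4 fitted amplitudes are lower in SCNx and all 4 fitted peaks earlier, with Dbp falling from 2.05 to 0.66. Nfil3 stays apart from the others in both groups. No SCNx curve was called by edgeR, and the 4 genes were read in the same mice, so that their shifts are not independent.

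A single mouse carried much of the SCNx curve of the activators. SCNx CT8 had the highest Dbp, Tef and Hlf and the lowest Nfil3 of the 12 SCNx mice, whereas SCNx CT32, the mouse taken at the same hour a day later, had 21.9 CPM of Dbp, 105 of Tef, 53.6 of Hlf and 11.7 of Nfil3. Ctrl CT8 had 106 CPM of Dbp, 147 of Tef, 60.9 of Hlf and 3.91 of Nfil3, so that SCNx CT8 stood near a control mouse of its hour for the activators but not for the repressor. The CT8 library was also the extreme of the SCNx group for Arntl (the gene of BMAL1), with 3.27 CPM against a SCNx median of 14.8 CPM, and for all 3 tested E-box activators and 6 of 8 E-box repressors, where 19.0% of all genes tested had their extreme there. Counted from the highest of the 12 SCNx libraries, its fibroblast markers ranked 1 (563 CPM, group median 493), hepatocyte markers 2 (14.9 CPM, group median 5.18), epithelial markers 4, oligodendrocyte markers 5, endothelial markers 7, astrocyte markers 8, neuronal markers 11 and macrophage markers 12. Their part in the result was not tested. Without this mouse the SCNx amplitude was 0.34 for Dbp, 0.22 for Tef, 0.16 for Hlf and 0.32 for Nfil3, and the difference of the rhythm from Ctrl was called for all 4 (adjusted p from 8.89e-07 for Dbp to 0.00498 for Hlf). Nfil3 was the member whose SCNx curve depended least on it. Over the 11 other SCNx mice, the highest level was 2.4 times the lowest for Dbp, 1.56 times for Tef, 1.45 times for Hlf and 1.78 times for Nfil3.

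The average level of the members did not pass the test between the groups. The mean of Dbp was 55.8 ± 50.6 CPM over the Ctrl and 30.9 ± 19.4 CPM over the SCNx mice (SD, n = 12 each), a log2 difference of the group means of -0.85 ± 0.45 (SE; 95% interval -1.77 to 0.07; adjusted p = 0.568). The group means were tested without curve terms, so that their error includes the daily swing. On the log scale, where the middle line of the curves (mesor) is compared, the Dbp difference was -0.27 ± 0.17 (adjusted p = 0.558). Without SCNx CT8 it was -0.46 in mesor and -1.12 in the group means. Tef differed by -0.20 ± 0.23 in the group means (95% interval -0.68 to 0.28) and Hlf by -0.08 ± 0.14 (-0.36 to 0.20). Nfil3 differed by 0.06 ± 0.24 (-0.44 to 0.56). In mesor, Tef differed by -0.03 ± 0.08, Hlf by -0.04 ± 0.07 and Nfil3 by 0.24 ± 0.08, the last with p = 0.0046 before and 0.266 after adjustment. By edgeR 0% of the genes tested were called for either measure, with 1283 and 1518 at an unadjusted p under 0.05. With DESeq2, 14 and 76 genes were called, and no member was among them.

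Levels between the members can be compared only per length. Divided by the exon length of each gene in GENCODE vM21, the mean Ctrl level was 18.6 CPM per kb for Dbp, 14.8 for Tef, 7.71 for Hlf and 6.02 for Nfil3. In SCNx the means were 10.3 CPM per kb for Dbp, 12.9 for Tef, 7.29 for Hlf and 6.28 for Nfil3, so that Tef stood before Dbp. Taken over the length of the longest principal transcript, Dbp was again first in Ctrl (30.4 CPM per kb against 26.4 for Tef) and second in SCNx (16.8 against 23.01). By exon length, Dbp exceeded Tef in 5 of 12 Ctrl mice and in 1 of 12 SCNx mice, and the means of these neighbours in Ctrl (SD 16.9 and 7.35 CPM per kb) differed by less than their spread. Tef exceeded Hlf in 11 of 12 Ctrl and 12 of 12 SCNx mice. Hlf exceeded Nfil3 in 8 of 12 mice of each group, with SDs of 2.31 and 3.398 CPM per kb in Ctrl and 1.29 and 1.30 in SCNx, so that their means also differed by less than the spread. In Ctrl these SDs, like those of Dbp and Tef, include the daily swing and ignore that both genes were read in the same mice.

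The balance of activator and repressor was followed as the log2 ratio of their CPM in each mouse. In Ctrl the ratio of Dbp to Nfil3 ran from -1.11 in CT0 to 4.76 in CT8, with a median of 1.88. In SCNx it ran from 0.04 in CT40 to 3.33 in CT8 (median 1.07), the next highest being 2.09 in CT4. These ratios are not divided by gene length, so that 0 does not mark equal levels of the genes, while a span does not depend on length. The ratio of Dbp to Nfil3 was below 0 in the 4 Ctrl mice of CT0, CT20, CT24 and CT44. SCNx CT40 stood only just above 0, so that no weight is put on this line. The span of this ratio was 5.87 in Ctrl and 3.29 in SCNx. For Tef to Nfil3 the span was 4.097 in Ctrl and 2.06 in SCNx, and for Hlf to Nfil3 3.46 and 1.74.

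Across single mice the members were tied to each other in both groups. Among the 12 Ctrl mice, log2 CPM of Dbp and Tef had r = 0.91 (rho = 0.94), Dbp and Hlf r = 0.93 (rho = 0.94), Tef and Hlf r = 0.91 (rho = 0.99), and Nfil3 had r = -0.91 with Dbp (rho = -0.85), -0.72 with Tef (rho = -0.81) and -0.83 with Hlf (rho = -0.83). All 6 pairs passed the permutation test (100000 permutations; adjusted p over 12 pairs at most 0.00956 for r and 0.00427 for rho). These mice differ in circadian time, and once each gene's 24 h curve was taken off, no Ctrl pair passed (r from -0.13 to 0.43, adjusted p from 0.337 by permutation).

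The same pairs were also related among the SCNx mice, in which no rhythm was called by edgeR. Dbp had r = 0.95 with Tef (rho = 0.90), 0.86 with Hlf (rho = 0.66) and -0.77 with Nfil3 (rho = -0.77). Tef had r = 0.88 with Hlf (rho = 0.76) and -0.83 with Nfil3 (rho = -0.79), and Hlf had r = -0.75 with Nfil3 (rho = -0.62). All 6 pairs passed by permutation (adjusted p at most 0.00236 for r and 0.0346 for rho). The share of pairs of other genes that would pass was not taken in either group, with or without the 24 h curve. The counts of pairs therefore do not set the members apart from other genes. With SCNx CT8 left out, an alternative chosen after the data were seen, r was 0.88 for Dbp and Tef, 0.62 for Dbp and Hlf, -0.71 for Dbp and Nfil3, 0.73 for Tef and Hlf, -0.78 for Tef and Nfil3 and -0.66 for Hlf and Nfil3, and all 6 passed (adjusted p at most 0.039 by permutation). Leaving out the 2 mice farthest from the median of the first gene gave r = 0.86, 0.52, -0.57, 0.69, -0.73 and -0.65 in the same order. After removal of the 24 h curve the 3 pairs among the activators passed by r (0.92 for Dbp and Tef, 0.77 for Dbp and Hlf, 0.79 for Tef and Hlf; adjusted p = 0.0006, 0.0221 and 0.0209 by permutation), and the 3 pairs with Nfil3 did not (r = -0.62, -0.65 and -0.39; adjusted p = 0.0606, 0.0552 and 0.369). By rho of these residuals, 1 of the 6 pairs passed, Dbp and Tef (rho = 0.95, adjusted p = 0.00024 by permutation), while Dbp and Hlf had rho = 0.62 and Tef and Hlf rho = 0.57 (adjusted p = 0.113 and 0.143). Without the 2 mice farthest from the median of the first gene, the residual r was 0.94 for Dbp and Tef, 0.63 for Dbp and Hlf and 0.30 for Tef and Hlf.

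Arntl, whose protein drives Dbp, ran against the activators and with Nfil3. It was singled out after its values were seen, as the gene with the strongest correlation to Dbp. Dbp and Arntl had r = -0.98 in Ctrl (rho = -0.97) and r = -0.99 in SCNx (rho = -0.97), where Arntl ranked 1 among 13696 genes by the size of r, as it did for Tef (r = -0.96, rho = -0.96 in SCNx). Arntl ranked 9 for Hlf (r = -0.88, rho = -0.78) and 43 for Nfil3 (r = 0.80, rho = 0.79). Since Arntl was picked for this relation among all genes, these values are a description with no test. In SCNx without the 2 mice farthest from the median of the member, r was -0.94 for Dbp, -0.89 for Tef, -0.64 for Hlf and 0.73 for Nfil3.

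**Figure D3:**
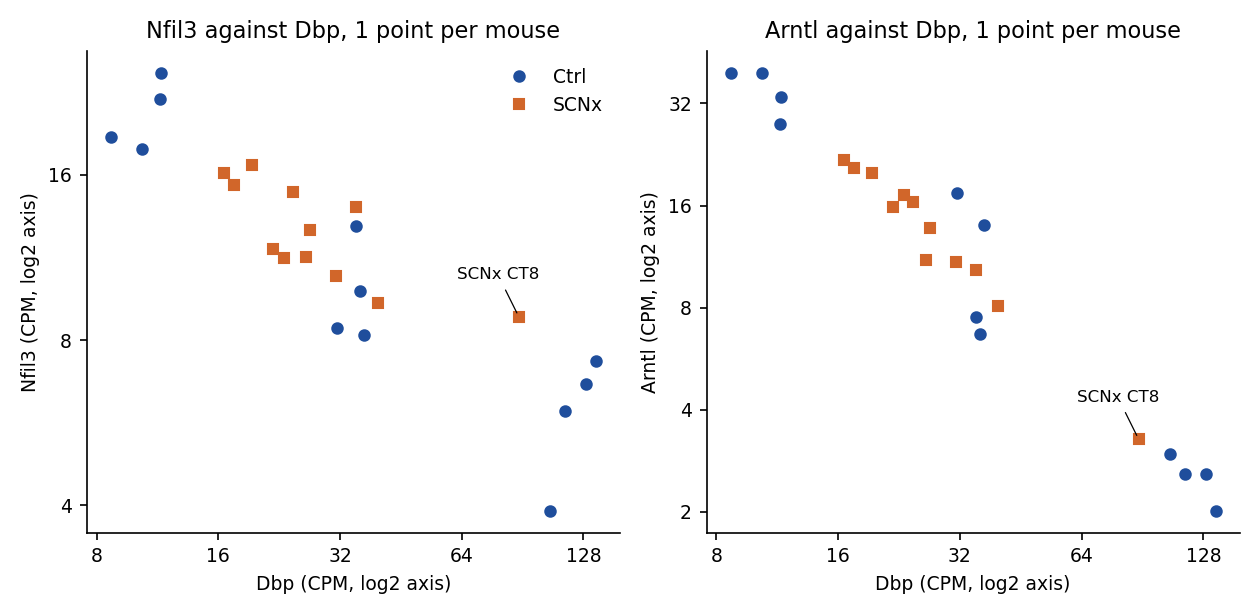
Nfil3 (left) and Arntl (right) against Dbp, in CPM on log2 axes, with 1 point per mouse, Ctrl as blue circles and SCNx as orange squares. In both panels the 12 SCNx mice lie inside the range spanned by Ctrl, and along the Arntl panel they fall on a narrow line (r = -0.99) with SCNx CT8 at its low-Arntl end.

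Beyond Arntl, the genes most like each member in Ctrl were taken as the 5 with the highest r of log2 CPM over the 12 mice, as a description. For Dbp these were Slc25a10, a mitochondrial dicarboxylate carrier (r = 0.97), Prep, a prolyl peptidase (0.97), Bhlhe41, a clock repressor (0.96), Anxa7 (0.95) and Gm1110 (0.95). Bhlhe41 had r = 0.79 with Dbp over the SCNx mice too, and the other 4 between 0.39 and 0.64. For Tef they were Per3 (0.98), Tspan4 (0.95), Ndufaf6 (0.95), Bambi (0.95) and Gm17092 (0.94), of which Per3 had r = 0.84 and Gm17092 r = -0.17 in SCNx. Per3, a period gene, carried 2 copies of the D-box TTATGTAA in its promoter, where a D-box of either spelling stood in 0.931% of all promoters, at chr4:151044816-151044915 (GRCm38.p6, minus strand), shown with the first in capitals and the second in the last 8 letters.
Per3: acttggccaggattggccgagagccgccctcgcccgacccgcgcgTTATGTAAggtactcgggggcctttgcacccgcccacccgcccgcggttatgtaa
For Hlf the genes most like it were Sspn, encoding sarcospan (0.95), Fam166c (0.95), C1qtnf1 (0.95), Tns2 (0.94) and Bambi (0.93). Sspn kept r = 0.92 with Hlf over the SCNx mice. For Nfil3 they were Imp4, Aggf1, Atg4b, Fnta and Ubap1 (r = 0.95 to 0.98), all of small amplitude (0.11 to 0.16, log2 CPM) and with r from 0.11 to 0.49 in SCNx.

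The other layers of the clock, in lists drawn from general knowledge with earlier results of these data known, were called in Ctrl throughout. Of the E-box activators, 3 of 4 were tested and all 3 were rhythmic in Ctrl (Arntl, Clock and Npas2). So were 8 of 8 E-box repressors and 4 of 4 tested ROR and REV-ERB receptors, where 10.7% of the genes tested were. Cry1 and Rora are among them (edgeR adjusted p = 1.09e-06 and 0.00714). The paper, with other detection methods and another threshold, did not count these 2 genes as rhythmic. The source of this difference was not tested. Arntl peaked at 22.9 h and Npas2 at 0.15 h, opposite to Dbp and Tef, and Ciart, an E-box repressor, at 11.2 h with the widest curve of these lists (amplitude 2.82, log2 CPM). Nr1d1, the gene of REV-ERB alpha, which represses Nfil3, peaked at 7.55 h (amplitude 2.45), and Nfil3 at 20.9 h. The difference of the rhythm from SCNx was called for 2 of 3, 6 of 8 and 3 of 4 genes of these lists, and 0 of them were called in SCNx by edgeR (2, 3 and 0 stood at an unadjusted p under 0.05). The median Ctrl amplitude was 1.28 for the activators, 1.06 for the repressors and 1.29 for the receptors (log2 CPM), beside 1.08 for the 4 members and 0.11 for all genes tested. Of the 8 clock genes known to hold D-boxes, 7 were tested and all 7 were rhythmic in Ctrl (median amplitude 1.24). They overlap with the E-box and receptor lists. In the promoter search, 7 of the 8 had a promoter, and only 1 of these 7, Per3, held a D-box. D-boxes outside the searched window or with other spellings were not looked for.

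Most of the genes that the PAR bZIP factors and NFIL3 control in liver and other tissues did not pass the filter on low counts. Of 14 such genes 5 passed it, beside 13697 of the 55416 genes of the count table. Of these 5 genes 3 were rhythmic in Ctrl, where 10.7% of the genes tested were. Por, the electron donor of microsomal cytochromes P450, had an amplitude of 0.43 (log2 CPM) and peaked at 9.35 h (adjusted p = 0.00143). Pdxk, which activates vitamin B6, had 0.18 at 13.3 h (adjusted p = 0.000876), and Alas1, the first enzyme of haem synthesis, had 0.18 at 15.1 h (adjusted p = 0.0291). Ppara and Abcb1a were not called (adjusted p = 0.522 and 0.641). No gene of this list was called for a different rhythm in SCNx, where 2.12% of the genes tested were. In the promoter search, 0 of the 13 genes of this list with a promoter held a D-box of either searched spelling, beside 0.931% of all promoters. With so few genes, these 2 counts do not set the list apart from other genes. Cyp3a11, a hepatic cytochrome P450, did not pass the filter, with a mean of 0.30 CPM in Ctrl and 384 CPM in the SCNx library with hepatocyte transcripts (CT0), against at most 0.283 CPM in the 11 other SCNx libraries. Of the related C/EBP and ATF factors, 6 of 9 were tested and 1 was rhythmic in Ctrl, Cebpg (amplitude 0.21, peak at 18.5 h, adjusted p = 0.0119). With 10.7% of all genes tested rhythmic, this count does not set the factors apart. Their median amplitude was 0.114 beside 0.11 for all genes.

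In the KO mice the comparison addresses the members when the local clock, and not the SCN, is the target. For the recombination, the paper reports a qPCR check in liver samples without showing the data. With 1 mouse per time the comparison has no replicate check. Dbp had 60.7 CPM at ZT7 and 77.5 CPM at ZT18, a log2 ratio (ZT18 over ZT7) of 0.35 with an exact 95% counting interval of 0.24 to 0.47, which covers counting error only. The fitted Ctrl curve changed between the same hours by -2.29 ± 0.11 (SE, log2), and the SCNx curve by -1.31 ± 0.47. Ctrl mice at CT4 and CT28 had 31.4 and 36.7 CPM, and those at CT8 and CT32 106 and 115 CPM. The KO library of ZT7 lay between the levels of these hours. Ctrl mice at CT16, CT20, CT40 and CT44 had 11.5 to 35.9 CPM, and the KO library of ZT18 lay above all of these.

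Tef and Hlf also stood higher in the KO library of the night. Tef had 82.9 CPM at ZT7 and 94.0 CPM at ZT18 (log2 ratio 0.18, interval 0.08 to 0.28), where the Ctrl curve gave -0.44 ± 0.14 and the SCNx curve -0.62 ± 0.21. Hlf had 40.5 and 62.3 CPM (log2 ratio 0.62, interval 0.49 to 0.76), where the Ctrl curve gave -0.50 ± 0.13 and the SCNx curve -0.47 ± 0.15. Nfil3 had 7.75 and 7.97 CPM from 135 and 144 counts (log2 ratio 0.04, interval -0.31 to 0.39), where the Ctrl curve rose by 1.73 ± 0.18 and the SCNx curve by 0.70 ± 0.13. The ratio of Dbp to Nfil3 was 2.97 at ZT7 and 3.28 at ZT18 (log2), close to each other and both above the Ctrl median of 1.88. Arntl itself had 10.6 CPM at ZT7 and 9.36 CPM at ZT18. Its excised part is only one region of the gene, so that gene-level counts check the deletion only in part.

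The KO libraries are set beside the others for their values only, since tissue capture, kit, light conditions, animal facility and age differed. The paper also gives a lower RNA integrity for the frozen KO samples. The summed epithelial markers were lower in them (87023 and 82807 CPM) than in the dissected tissue. Astrocyte markers had 743 CPM at ZT7 and 866 CPM at ZT18 (Ctrl median 147), and markers of neurons and cerebellum 293 and 421 CPM (Ctrl median 18.7). These markers, like Dbp, Tef and Hlf, were higher in the library of ZT18, and their part in the result was not tested. In Ctrl CT4, the dissected control library rich in the same markers, Dbp had 31.4 CPM, Tef 87.9 and Hlf 54.2, against 36.7, 79.4 and 43.2 CPM in Ctrl CT28, the same hour a day later. In SCNx CT32 they had 21.9, 105 and 53.6 CPM, against 23.3, 88.9 and 45.2 CPM in SCNx CT28.

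**Figure D4:**
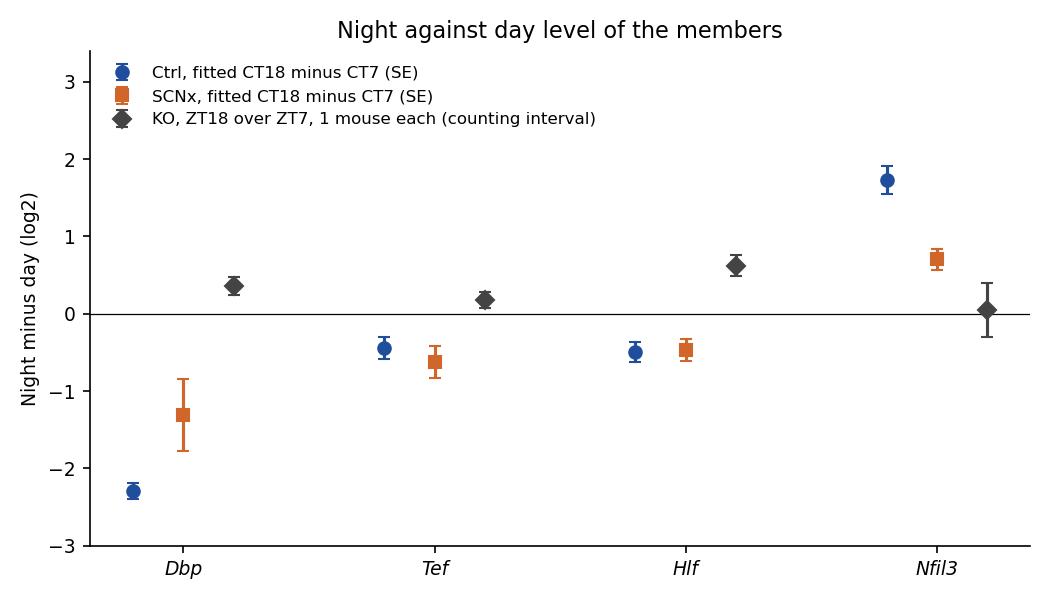
Night minus day difference of each member on the log2 scale, as the fitted CT18 minus CT7 of the Ctrl (blue circles) and SCNx (orange squares) curves with 1 SE, and as ZT18 over ZT7 of the KO libraries (grey diamonds, 1 mouse each) with 95% counting intervals. Dbp is at -2.29 in Ctrl and 0.35 in KO, and Nfil3 at 1.73 in Ctrl and 0.04 in KO.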

How the data were processed

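RNA-seq libraries of the choroid plexus were read as estimated counts per gene. The authors made the deposited expected counts with nf-core/rnaseq and Salmon (1.9.0) on GRCm39, pooling no mice. The submitters' processing notes also name STAR, SAMtools 1.16.1, cutadapt 3.4 and StringTie 2.2.1. The Ctrl and SCNx libraries were poly(A)-selected, the KO libraries made from total RNA.

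Counts were rounded, scaled by TMM and fitted in edgeR 4.0.16 (quasi-likelihood F test) with a mean, a cosine and a sine term of 24 h for each group over 24 libraries, and p-values were adjusted over all 13697 genes. Amplitudes are log2, with SEs from residuals of log2 CPM (prior count 1). Level was tested without curve terms. Alternatives were DESeq2 1.42.0, limma 3.58.1 (limma-trend), other size factors and filters, and leaving out mice. The scripts were tested on simulated data. Correlations used 100000 permutations. KO libraries were scaled by their totals.

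The members and gene lists were chosen with earlier results of these data known. Genes named were the members, list genes, the 5 genes most like each member in Ctrl, and Arntl. The files' genome was not used for sequences, which are RefSeq's (GRCm38.p6). Lengths are from GENCODE vM21. Labels do not give the completeness of the lesion per mouse, and p-values measure the spread between single mice.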

Additional observations from a re-analysis of the deposited data

Results flagged for a closer look

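The 24 h rhythm of each member differed between Ctrl and SCNx mice by the test of the difference itself (edgeR, both curve terms). The vector between the curves had a length of 1.77 in log2 CPM for Dbp, 1.10 for Tef, 0.85 for Nfil3 and 0.48 for Hlf, with amplitudes lower in SCNx for all 4. Groups of 12 mice were not examined for single outlying mice by Dixon's test.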

How the results depend on the processing

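Of 880 recalculations of the members' values under other settings, 852 kept direction and side of the threshold. Amplitudes and vector lengths cannot be negative, so that for these values only the side of the threshold could change. Many of the settings left out 1 mouse and shared the other mice with the main fit, so that this count is no measure of robustness. The count of members rhythmic in SCNx was 0 and became 3 with DESeq2 and 3 with no filter on low counts. Over all genes the SCNx count was 0 in edgeR, 432 with DESeq2 and 1384 with no filter, the differential count 291, 589 and 654, and the 12 h count 0, 33 and 1370. The Hlf difference was 0.45 without the hepatocyte-rich pair and 0.43 to 0.47 in the delete-one fits that lost its call. The mesor of Tef turned to 0.0151 without Ctrl CT4 and SCNx CT32, and ranged from -0.0953 to 0.0102 (without SCNx CT28) with 1 mouse left out. With 1 mouse left out, the level of Nfil3 ranged from -0.0251 (without Ctrl CT8, and also below 0 without Ctrl CT32) to 0.201, and over all settings it reached 0.247. Leaving out the pairs with libraries that stand apart turned the second-cycle difference in SCNx to 0.0124 for Tef and -0.023 for Nfil3. On residuals from the 24 h curve, 0 of 6 pairs of members passed in Ctrl, where Dbp and Nfil3 turned to 0.43, and 3 of 6 in SCNx by r (1 of 6 by rho). The labels give no replicate numbers, and replicates were numbered by circadian time. With that time as a factor (a pairing of Ctrl and SCNx by hour), the level difference was -0.38 for Dbp, -0.05 for Tef, -0.04 for Hlf and 0.24 for Nfil3, and no member was called. Depth differed little between the Ctrl and SCNx libraries. Nfil3 rested on 135 and 144 counts in KO, and on 168 counts in Ctrl CT8 and 246 in Ctrl CT32, near its Ctrl trough.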
